A study of Schizosaccharomyces pombe with 8 samples.

Results

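Divergent non-coding RNAs (ncRNAs) at gene promoters of fission yeast were examined in libraries of nascent and lysate RNA. An ncRNA was taken as divergent when its 5′ end lay within 500 nt of the 5′ end of a protein-coding gene on the opposite strand, and when no single gene covered 50% or more of it. The rule used annotation only and no measured value. It left 566 of 3097 annotated ncRNAs on chromosomes I to III, 358 listed as ncRNA genes and 208 as XUTs, and paired them with 474 genes. Of the other ncRNAs, 1936 were left out for overlap with a gene and 595 had no opposite gene start in reach. XUTs are unstable antisense or intergenic RNAs that accumulate when the cytoplasmic 5′ to 3′ exonuclease Xrn1, named Exo2 in fission yeast, is missing.

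Promoters of yeasts and animals often recruit RNA polymerase II (Pol II) in both orientations, so that a short upstream RNA and the mRNA start back to back from one nucleosome-depleted region. Early termination, the nuclear exosome and cytoplasmic exonucleases usually keep the upstream RNA scarce. Histone deacetylases, Set2 methylation and nucleosome assembly are known from budding yeast to restrain such cryptic and divergent initiation. Trichostatin A (TSA) blocks deacetylases of classes I and II, which in fission yeast include Clr6, Hos2 and Clr3.

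The cells carried a flag tag on Rpb3, a Pol II subunit, and were left untreated or grown for 2.5 h with 20 µg/ml TSA. Each treatment was labelled as biological duplicates, which gave 2 NET-seq libraries of RNA held by immunoprecipitated Rpb3 (IP, nascent RNA) and 2 input libraries of the same lysates per group, 8 libraries altogether. All groups carried the tagged allele, 1 drug dose and 1 time were sampled, and the labels name no vehicle for the untreated cells. Lysate of budding yeast with tagged Rpb3, 1 part in 50, gave the spike-in. IP values are deposited on a spike-in scale, set by budding yeast ribosomal protein genes, and on a total-read scale. The inputs are on the total-read scale only.

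Libraries held 7218671 to 12591213 reads over the 9111 annotated features kept. The divergent ncRNAs, counted once per locus, took 0.555% to 0.904% of IP reads and 0.403% to 0.425% of input reads. Their depth was low, with a median of 24 reads per ncRNA and IP library and of 2.5 per input library, and 254 of the 566 averaged under 20 IP reads. The 566 formed 472 loci, because 88 loci held more than 1 annotated ncRNA on the same strand. The transcripts of 403 pairs were apart and those of 163 overlapped at their starts, the median distance of the 5′ ends was 158.5 nt and the median ncRNA was 729 nt long. Reads were not always private: 61 ncRNAs overlapped a gene on their own strand and 271 another annotated feature there, other ncRNAs included. Such reads cannot be separated from theirs where the features overlap. How reads were assigned to strands is not stated in the sources used here. The labels name no cell type beyond yeast cells. Of 9 meiotic and mating marker genes 8 were found, all with reads in all IP libraries, and dmc1 and meu14 rose in TSA (log2 fold changes of 2.56 and 1.68 on the spike-in scale), with a median of -0.14 over the 8.

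The ASM294v3 annotation held here, a later build than the study's, has 329 of the 358 ncRNA genes and 473 of the 474 partner genes by identifier, and no XUT. It calls 313 of the 329 lncRNA, 14 ncRNA and 2 snoRNA. All 329 pairs stand head to head there too, 296 of them with 5′ ends within 500 nt, and the median gap is 143 nt against 78 nt in the files, whose gene starts differ. Coordinates of transcripts below are the files' own.

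The DNA between both starts is shown for 4 of the named pairs whose ncRNA changed in TSA and whose starts lie within 250 nt in that annotation. The 6 bases between SPNCRNA.1691 and cao2 and the 27 between SPNCRNA.1658 and SPBC215.06c also qualify. They hold no searched motif and are not shown. Each stretch is the gap between the annotated starts and may not be the whole promoter. Sequences are from RefSeq's ASM294v3, 5′ to 3′ on the strand of the gene, so that the gene starts after the last base and the ncRNA leaves to the left. Capitals mark a match to a searched motif.
SPNCRNA.1073 and cdc4, I:5329061-5329187, plus strand: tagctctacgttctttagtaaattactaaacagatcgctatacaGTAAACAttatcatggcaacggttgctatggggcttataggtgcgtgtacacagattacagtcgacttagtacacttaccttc
SPNCRNA.1111 and pmp20, III:119000-119205, minus strand: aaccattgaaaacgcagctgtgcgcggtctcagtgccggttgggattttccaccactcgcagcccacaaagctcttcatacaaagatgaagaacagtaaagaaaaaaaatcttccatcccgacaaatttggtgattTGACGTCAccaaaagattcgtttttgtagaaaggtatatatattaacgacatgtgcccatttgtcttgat
SPNCRNA.517 and yme1, III:2289321-2289565, minus strand: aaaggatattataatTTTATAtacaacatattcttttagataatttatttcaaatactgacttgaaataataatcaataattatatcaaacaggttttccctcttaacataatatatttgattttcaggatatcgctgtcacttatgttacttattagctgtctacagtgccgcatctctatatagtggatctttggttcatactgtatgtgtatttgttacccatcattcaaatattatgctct
SPNCRNA.1409 and mas5, II:1081343-1081374, plus strand: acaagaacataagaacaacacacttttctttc

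The cdc4 promoter holds the forkhead FLEX element GTAAACA, the pmp20 promoter a palindrome that contains the Atf1 site TGACGT on both strands with the copies overlapping, and the yme1 promoter a TATA element TATAAA on the ncRNA's strand. The 32 bases between SPNCRNA.1409 and mas5 hold none of the searched letters; in the files, whose mas5 start lies farther upstream, this pair overlaps by 420 nt. Over the 250 nt upstream of the gene start, on both strands, FLEX was found at 13.95% of the 473 partner genes and 14.83% of all 5112 genes, TGACGT at 8.03% and 5.52%, and TATAAA at 40.6% and 44.4%. The shares were 2.75% and 2.62% for HomolD (CAGTCACA), an element of ribosomal protein promoters, 3.38% and 2.64% for the MluI cell cycle box (ACGCGT), and 2.33% and 1.70% for the stress element CCCCTC. The median GC content of these windows was 33.6% at partner genes and 32.0% at all genes. A match is a description of letters and not a bound site.

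Most divergent ncRNAs carried far less nascent RNA than the gene across the promoter. In untreated cells the median ncRNA had 0.0233 spike-in-scaled reads per nt (quartiles 0.0121 and 0.0481) and the median partner 0.156 (0.0823 and 0.351). Of 555 pairs with reads on both sides the gene was denser in 512 and the ncRNA in 43, with a median gene to ncRNA ratio of 6.55 over all 555, while 9 ncRNAs had no read in untreated cells. Pairs with transcripts apart and pairs with overlapping starts had similar median ratios, of 7.05 and 6.10. XUTs had a median density of 0.0178 and ncRNA genes of 0.0277.

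**Figure D1:**
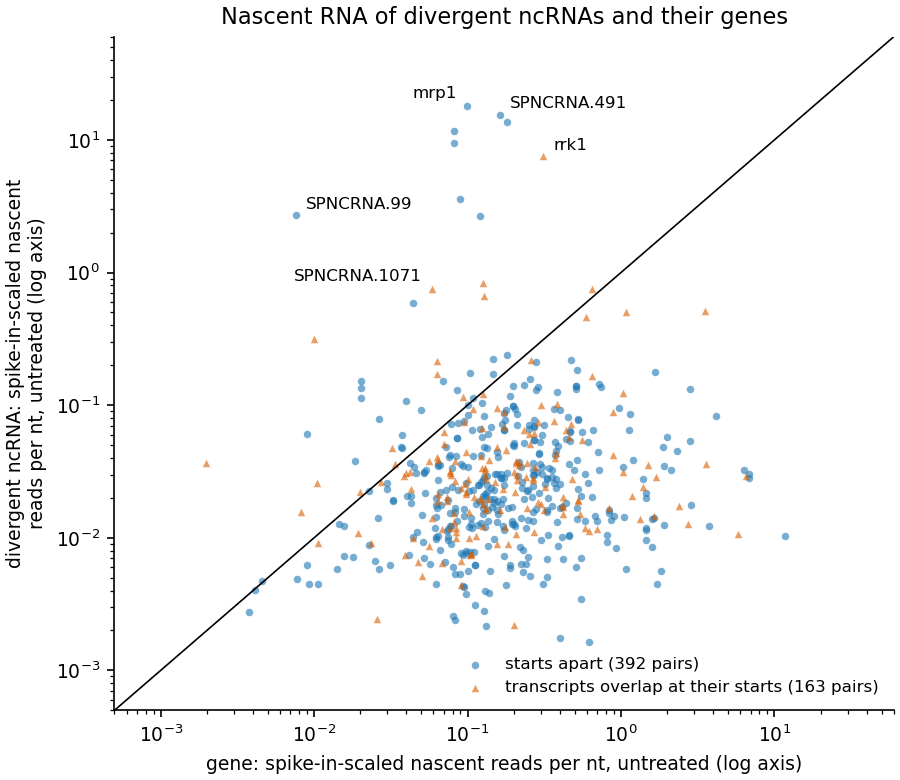
Spike-in-scaled nascent reads per nt in untreated cells (mean of 2 libraries) for each gene (horizontal, log axis) and its divergent ncRNA (vertical, log axis), for the 555 pairs with reads on both sides; circles are pairs apart, triangles pairs overlapping at their starts, and the line marks equal density. The gene was denser in 512 pairs, and the ncRNAs far above the line include the RNAs of RNase MRP and RNase P. Both of these RNAs had IP values near their input values.

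The densest members include stable RNAs. The 5 most abundant held 48.3% to 58.0% of the members' IP reads and 67.7% to 76.9% of their input reads. The highest density belonged to mrp1 (SPNCRNA.82), the RNA of RNase MRP, an endonuclease of rRNA processing, which starts 375 nt from SPAC10F6.14c (I:1234451-1234849). Its density was 20.4 and 15.5 reads per nt in the untreated libraries and 11.8 and 12.5 in TSA, 180-fold above the gene's in untreated cells. The TSA values were lower, but the change of -0.55 (log2) did not pass the test. SPNCRNA.491, opposite the DNA end resection factor gene ctp1 (III:1360323-1360746), had 20.2 and 10.8 reads per nt untreated and 10.6 and 9.34 in TSA, so that its groups nearly met and its untreated replicates had the largest SD of these 8. SPNCRNA.515 is a 105 nt RNA opposite cox17, the gene of a copper chaperone of cytochrome c oxidase, and had 13.6 and 13.9 reads per nt untreated against 9.01 and 8.28 in TSA (adjusted p = 0.0931). SPNCRNA.942, opposite the spindle pole body gene ppc89, had 9.5 ± 1.64 reads per nt untreated and 8.69 ± 1.71 in TSA (SD, n = 2).

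The RNA of RNase P, rrk1 (SPNCRNA.128), overlaps the start of the proteasome subunit gene pre10 by 207 nt (III:989942-990834). It had 7.60 ± 1.03 reads per nt untreated and 7.51 ± 1.36 in TSA (SD, n = 2), so its groups overlapped. XUT1229, opposite the Mediator subunit gene srb7, had 3.61 ± 0.170 and 3.89 ± 0.347, and SPNCRNA.893, opposite the gene of the Pol II phosphatase Ssu72, had 2.67 ± 0.408 and 3.24 ± 1.25. XUT1229 lies over a tRNA gene on its strand. In the order of untreated levels per nt, the libraries of SPNCRNA.491 overlapped those of both mrp1 and SPNCRNA.515, which did not overlap each other. The lower library of SPNCRNA.942 (8.34) met the higher one of rrk1 (8.33), and SPNCRNA.99, at 2.82 and 2.60, lay within the range of SPNCRNA.893, at 2.96 and 2.38. None of these 8 was called in TSA on the spike-in scale except SPNCRNA.99, described with the falls.

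Most divergent ncRNAs, like most features, were enriched in the IP. In untreated cells 298 of 309 tested members had an IP value at least 2-fold above the input value, against a background of 95.4% of all 6995 features, and 4 were lower, against a background of 1.57%. The median was 3.01 (log2), beside 2.61 for the partner genes, 2.70 for all features and 3.34 for other ncRNAs, and the ncRNA exceeded its gene by a median of 0.41. With a minimum mean of 20 reads in both IP and input, 31 members were tested and the median difference was -1.39, so the sign was not stable. That filter selects members with much input RNA, which is the denominator of the measure. It therefore cannot show on which members the sign rests. The zero of this measure is set by total-read scaling and is no neutral point.

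The 4 members lower in the IP lay at 3 loci. SPNCRNA.1429 and XUT1052 share a locus opposite SPBC30B4.06c and had IP over input values of -2.58 and -2.60 (log2). SPNCRNA.1472, opposite SPBC3H7.04, was 5.51-fold lower, and SPNCRNA.1650, opposite the SNARE gene sec9 and annotated as a snoRNA, was 4.73-fold lower. The RNAs of RNase MRP and RNase P lay near equality, at -0.14 and -0.18 (log2), while SPNCRNA.99 was 34.7-fold higher in the IP. Of the other densest members, SPNCRNA.893 (-0.01), XUT1229 (-0.51) and SPNCRNA.491 (0.62) were not called either way. SPNCRNA.515 (1.42) and SPNCRNA.942 (1.66) were called higher.

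TSA changed the nascent RNA of few divergent ncRNAs. On the spike-in scale 13 of 454 tested rose by 2-fold or more (2.86%, against a background of 2.10% of 8052 features) and 29 fell (6.39%, against a background of 6.31%). Both shares were near those of all features. The median change was -0.20 (log2), beside -0.50 for the partner genes, -0.22 for the other ncRNAs and -0.42 for all features. Of the partners 15 rose and 36 fell among 460, and of the other ncRNAs 84 and 136 among 1989. A call required an adjusted p under 0.05 in limma over all features and a 2-fold change on the scale of log2(value + 6), which understates changes of low ncRNAs. For nascent RNA limma took the variance wholly from its trend over all features. A member's own spread between the 2 biological duplicates thus had no weight in its SE or p-value. Every member past 2-fold was called.

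The falls depended on single libraries. Their number was 13 without untreated library 1, 65 without untreated library 2, 0 without TSA library 1 and 2 without TSA library 2, and the rises numbered 20, 10, 3 and 5. Without TSA library 1, 3 of the 6 rises and all 8 falls described below were no longer called.

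The total-read scale, which sets the library totals equal, gave the opposite balance. There 38 of 452 members rose (8.41%, against a background of 4.45%) and 4 fell (0.885%, against a background of 0.843%), with a median of 0.18 beside 0.03 for all features, -0.03 for partner genes and 0.18 for the other ncRNAs, of which 8.65% rose. Without untreated library 1 the falls numbered 12, and without TSA library 2 they numbered 6. All 13 rises of the spike-in scale were also called there, and 4 of the 29 falls. On the spike-in scale 1 read counted as 1 and 0.547 in untreated libraries 1 and 2, and as 0.552 and 0.808 in TSA. With total-read scaling these values were 0.743, 0.658, 0.780 and 1. The untreated duplicates thus differed more in their spike-in factors than in their total-read factors. How far this set the balance was not tested. On both scales the median of the members lay above that of their genes and close to that of other annotated ncRNAs.

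**Figure D2:**
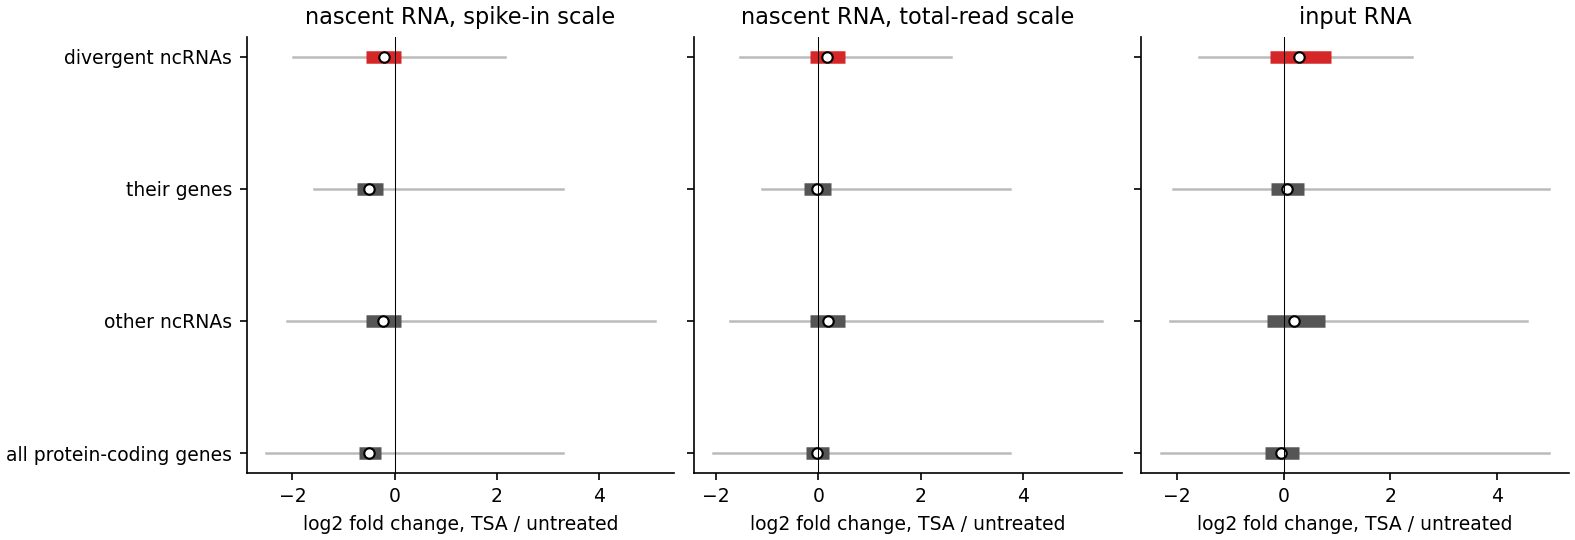
Log2 fold changes in TSA over untreated cells (horizontal) for divergent ncRNAs, their genes, other annotated ncRNAs and all protein-coding genes, in nascent RNA on both scales and in input RNA; white points are medians, thick bars the quartiles and thin lines the full range. The divergent ncRNAs had medians of -0.20, 0.18 and 0.29, above those of their genes in each panel.

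The 13 rises came from 12 loci, 8 were XUTs, and their mean depth was 9.5 to 81.25 IP reads. The largest among those with 20 or more reads was SPNCRNA.1691 (II:4428745-4430247), which overlaps the start of cao2, a copper amine oxidase gene, by 40 nt. It had 19.0 and 13.7 spike-in-scaled reads in untreated cells and 77.3 and 114 in TSA. Both TSA libraries lay well above both untreated ones (log2 fold change 2.17 ± 0.35 SE, adjusted p = 7.97e-08). Its gene rose as well, from 54.0 and 47.6 to 133 and 216 (1.63), and the input RNA of both was called higher. SPNCRNA.1691 shares 67 nt with SPBC8E4.05c on its own strand, which moved from 21.0 and 12.6 to 62.4 and 97.0, so that part of the reads cannot be assigned to either.

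XUT1621 (I:5332977-5333936) overlaps the start of paa1, the gene of the scaffold subunit of protein phosphatase 2A, by 35 nt. Its values were 2 and 2.19 untreated and 25.9 and 24.2 in TSA, among the lowest untreated levels of the named members (log2 fold change 1.94 ± 0.36 SE, adjusted p = 7.08e-06). The gene itself had 630 and 546 untreated and 453 and 470 in TSA, a change that did not pass the test. XUT1269, near an end of chromosome II (II:4471550-4472505), had 5 and 4.38 untreated and 28.7 and 33.9 in TSA (1.80, adjusted p = 4.34e-05). Across its promoter SPBPB2B2.06c went from 25 and 8.75 to 211 and 199, a larger rise (3.30).

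SPNCRNA.603, opposite the hexose transporter gene ght3 near an end of chromosome I (I:81468-82345), had 4 and 3.83 untreated and 21.0 and 25.1 in TSA (1.55, adjusted p = 0.000762). The ght3 gene had 29.0 and 14.2 untreated and 150 and 144 in TSA (2.52), so ncRNA and gene both rose with no overlap of groups. In the later annotation the 5′ ends of this pair lie 591 nt apart, beyond the limit of the rule. XUT0792 (III:31892-33605) had 9 and 7.11 untreated and 42.0 and 29.1 in TSA (1.55), while its gene SPCP20C8.02c, at 7 and 3.83 against 14.4 and 9.70, was not called. XUT0792 overlaps a pseudogene on its strand.

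SPNCRNA.517 (III:2289566-2290607) starts on the far side of the yme1 promoter shown above, yme1 being the gene of a mitochondrial inner membrane protease. It had 5 and 9.85 reads untreated and 19.3 and 21.8 in TSA, the smallest named rise (1.01 ± 0.35 SE, adjusted p = 0.0359). The yme1 gene had 798 and 485 untreated and 510 and 581 in TSA, and its groups overlapped. With 4 times the pseudocount 5 of these 6 rises were no longer 2-fold, and 2 were not called without TSA library 2.

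**Figure D3:**
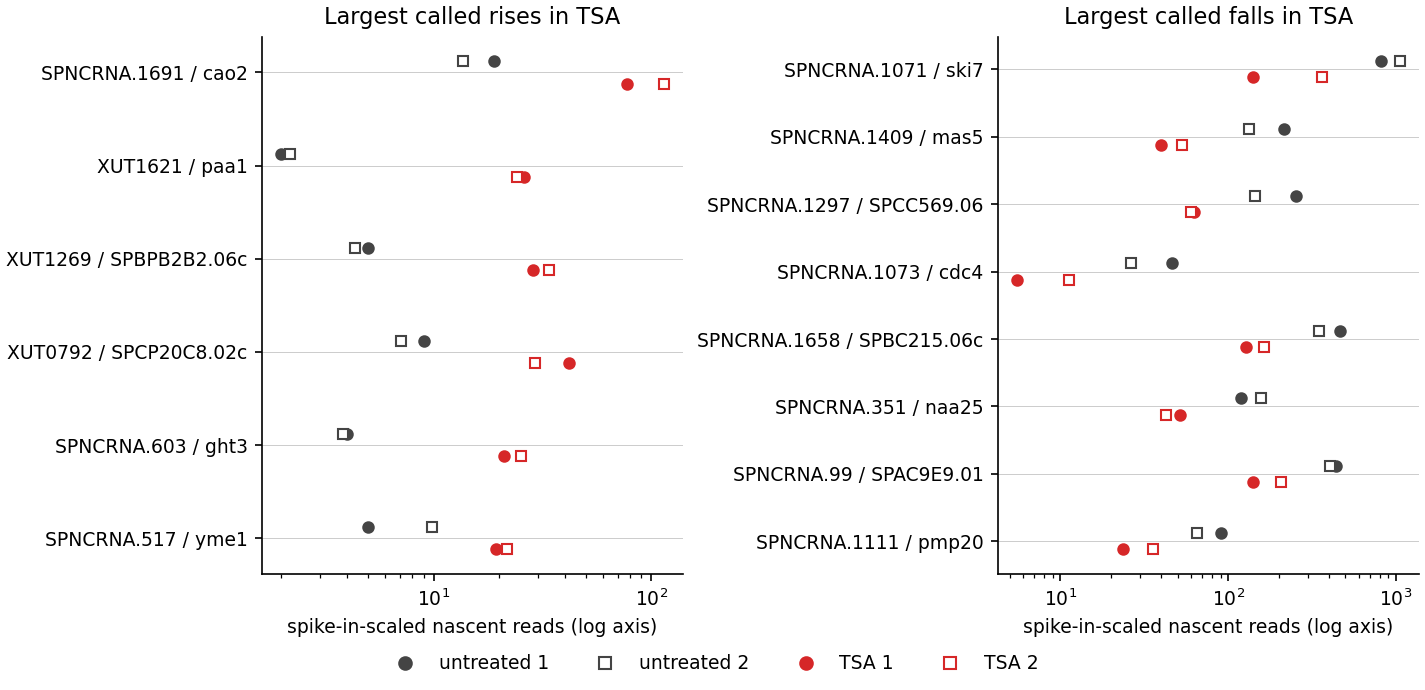
Spike-in-scaled nascent reads (horizontal, log axis) in each IP library for the 6 largest called rises and the 8 largest called falls among divergent ncRNAs with 20 or more reads, each named with its gene; circles are library 1 and squares library 2 of untreated (grey) and TSA (red) cells. In all 14 the untreated and TSA libraries do not overlap. The 14 were picked by their change in these same libraries, so this separation is no further support.

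The 29 falls came from 25 loci, 25 of the 29 were ncRNA genes, and 17 shared reads with a same-strand feature. The largest was SPNCRNA.1071 (I:5320613-5321854), which in the files overlaps the start of ski7 by 127 nt. In the later annotation their 5′ ends lie 527 nt apart, beyond the limit of the rule. Ski7 links the Ski complex to the exosome in budding yeast. SPNCRNA.1071 had 812 and 1051 reads untreated and 141 and 364 in TSA (log2 fold change -1.99 ± 0.29 SE, adjusted p = 3.91e-09). Both TSA libraries were lower, library 1 most, while ski7 had 234 and 162 untreated and 153 and 151 in TSA and was not called. SPNCRNA.1071 shares 64 nt with the heat shock gene hsp9 on its strand, whose values were 9980 and 7193 untreated and 1865 and 6269 in TSA, with the same library lowest.

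SPNCRNA.1409 (II:1079941-1081342) overlaps the start of mas5 by 420 nt in the files, mas5 being the gene of a DnaJ-type cochaperone. It fell from 214 and 132 to 39.7 and 53.3 reads (-1.74, adjusted p = 1.51e-05). The mas5 gene had 2987 and 2021 untreated and 1961 and 1672 in TSA, a change of -0.44 that did not pass the test. SPNCRNA.1297 (III:2422707-2423873) fell from 254 and 144 to 62.9 and 59.8 (-1.55, adjusted p = 0.00013), and its gene SPCC569.06 had 318 and 279 untreated and 404 and 274 in TSA. A same-strand gene with which it shares 67 nt, SPCC569.05c, stayed between 264 and 327 in all 4 libraries.

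Around the cdc4 promoter shown above, SPNCRNA.1073 (I:5328562-5329060) fell from 46.0 and 26.3 to 5.52 and 11.3 reads (-1.54, adjusted p = 0.000763). The cdc4 gene, for an essential light chain of myosin in the cytokinetic ring, had 340 and 293 untreated and 231 and 209 in TSA and was not called. SPNCRNA.1073 lies between SPNCRNA.1071 and XUT1621, so a fall, a fall and a rise were called within a short stretch of chromosome I whose 3 partner genes were not called.

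SPNCRNA.1658, the longest named member at 4284 nt (II:4038885-4043168), fell from 462 and 348 to 128 and 164 (-1.43, adjusted p = 0.000174) and was the single member called lower in the input. There it had 24.6 and 26.5 reads untreated and 11.2 and 12.1 in TSA on the total-read scale (-1.06). SPNCRNA.351, opposite naa25, a gene of the NatB acetyltransferase, fell from 120 and 158 to 51.9 and 42.8 (-1.43, adjusted p = 0.000807), while its input values were 2.89 and 2.74 untreated and 7.66 and 6.91 in TSA, higher without passing the test. It shares 90 nt with ucp8 on its strand, at 921 and 890 untreated and 545 and 589 in TSA.

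SPNCRNA.99 (I:4434321-4434475, minus strand) fell from 437 and 403 to 141 and 207 reads (-1.26, adjusted p = 0.00114). Its partner by the rule, SPAC9E9.01, held 3.83 to 6.47 reads in each library and was too low to test. The ncRNA begins next to the annotated end of SPAC9E9.02 (I:4434478-4437145, minus strand), which fell from 547 and 767 to 244 and 356 (-1.12). SPNCRNA.1111, across the promoter of the peroxiredoxin gene pmp20 shown above, fell from 90.0 and 65.1 to 23.7 and 35.6 (-1.23, adjusted p = 0.00701), and pmp20 itself, at 3964 and 2548 untreated and 1833 and 1984 in TSA, was not called (-0.74, adjusted p = 0.0775). Without TSA library 1 all 8 of these falls were lost and without TSA library 2 there were 6 lost, and under median-ratio scaling, which takes no spike-in, 4 were lost.

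Across the promoters, ncRNA and gene moved together only loosely. Over 451 pairs tested on both sides, the nascent changes correlated at Pearson r = 0.42 and Spearman rho = 0.30, and at 0.27 and 0.11 over 472 divergent pairs of 2 genes. All pairs share the same 4 libraries and their scaling, and members of a locus share reads, so these values are descriptions. The r was 0.45 for the 306 pairs apart and 0.37 for the 145 that overlap. Of the 13 ncRNAs that rose, 6 had a gene that rose and 7 a gene that was not called. Of the 29 that fell, 3 had a gene that fell, 25 a gene that was not called and 1 a gene too low to test. No pair was called in opposite directions, while in 11 pairs at 9 loci the gene rose, and in 37 pairs at 30 loci it fell, beside an ncRNA that was tested and not called.

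The balance between the sides was tested directly as the ncRNA to gene ratio within each IP library, which does not depend on the scale factor except through the pseudocount. The ratio was called higher in TSA in 46 of 451 pairs (10.2%) and lower in 15 (3.33%), with a median change of 0.25. On the total-read scale, with its own pseudocount, the median of ncRNA minus gene change was 0.16 over 449 pairs. The size of the shift thus depended on the scale. The pseudocount damps changes of low ncRNAs more than those of their denser genes, so a fall shared by both raises this ratio. The 46 pairs with a higher ratio had a median of 25.5 reads on the ncRNA. How much of the 0.25 came from the pseudocount was not tested. Over all 923 divergent pairs fitted together, which include these, the backgrounds were 6.07% and 2.17%. In the 472 pairs of 2 genes, all apart, the shares were 2.12% and 1.06%. These were taken as the plus-strand gene over the minus-strand gene, which is an arbitrary order. Their median near 0 (0.005) follows from that order and is no background for the direction of the 0.25. Their median SE was also smaller, 0.23 against 0.29 for the ncRNA pairs, so the shares are not like for like. Among the 46 higher ratios the median ncRNA changed by 0.53 and the median gene by -0.76, and 6 had a called rise of the ncRNA, 16 a called fall of the gene and 24 neither. Among the 15 lower ratios the medians were -0.35 and 1.14, with 5 called falls of the ncRNA and 8 called rises of the gene. Without either TSA library no pair was called in either direction, 31 were higher and 18 lower without untreated library 1, and 49 and 12 without untreated library 2.

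**Figure D4:**
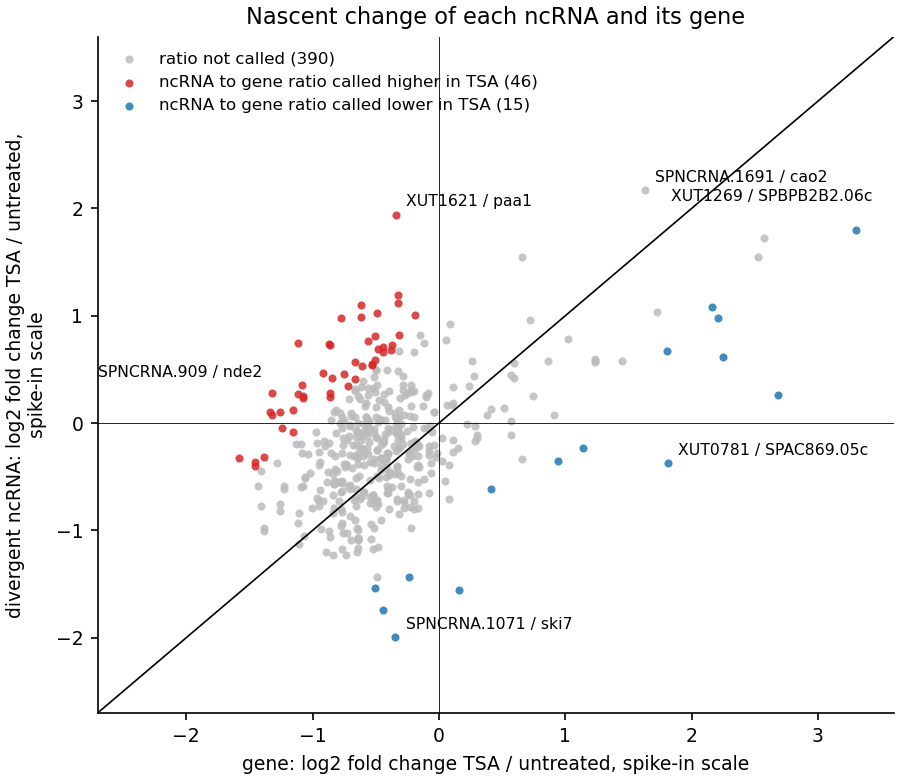
Log2 fold change of nascent RNA in TSA over untreated cells (spike-in scale) for each gene (horizontal) and its divergent ncRNA (vertical) in 451 pairs; red marks the 46 pairs whose ncRNA to gene ratio was called higher in TSA, blue the 15 called lower, and the diagonal marks equal change. Most red pairs lie left of 0, where the gene was lower in TSA. Most partner genes did so as well, since only 63 of 460 tested had a change above 0.

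The largest shift towards the ncRNA was at paa1, where XUT1621 over the gene, each plus the pseudocount, was 0.0126 and 0.0148 untreated and 0.0697 and 0.0636 in TSA (log2 change 2.28 ± 0.32 SE, adjusted p = 4e-05). At SPAC9E9.02 the ratio of SPNCRNA.987 went from 0.0579 and 0.0255 to 0.143 and 0.137 (1.87), with a called fall of the gene. In the later annotation the 5′ ends of that pair lie 1553 nt apart, beyond the limit of the rule. At ptc4, a gene of a type 2C protein phosphatase, the ratio of XUT1435 went from 0.0583 and 0.0976 to 0.222 and 0.294 (1.76). On the spike-in scale neither side was called alone, and on the total-read scale the ncRNA was called higher (1.37). The other named shifts upward were SPNCRNA.338 at the cyclophilin gene cyp3 (1.60), SPNCRNA.909 at nde2 and SPNCRNA.267 at the ribosomal protein gene rpl4101 (1.44). At nde2, the gene of a mitochondrial external NADH dehydrogenase, the gene fell from 2363 and 1794 to 741 and 912 while SPNCRNA.909 had 34.0 and 24.1 untreated and 31.5 and 41.2 in TSA (ratio change 1.60).

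Towards the gene, the largest shift was at SPAC869.05c (I:5505583-5508782), close to an end of chromosome I. The gene rose from 98.0 and 72.8 to 373 and 259, XUT0781 had 91.0 and 44.9 untreated and 37.0 and 62.2 in TSA, and the ratio fell by 2.18 (log2, adjusted p = 4e-05). The ratios of SPNCRNA.1297 (-1.71), SPNCRNA.1071 (-1.65) and SPNCRNA.1409 (-1.30) fell with the ncRNA, and that of XUT1269 (-1.50) fell where the gene rose more than the ncRNA. At the oligopeptide transporter gene opt3 the ratio of XUT0145 fell by 1.30. On the spike-in scale neither side was called alone, and on the total-read scale the gene was called higher (1.36). In all 12 named pairs the 2 untreated ratios lay on one side of both TSA ratios. The pairs were picked by the change of these same ratios, so this separation is no further support.

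**Figure D5:**
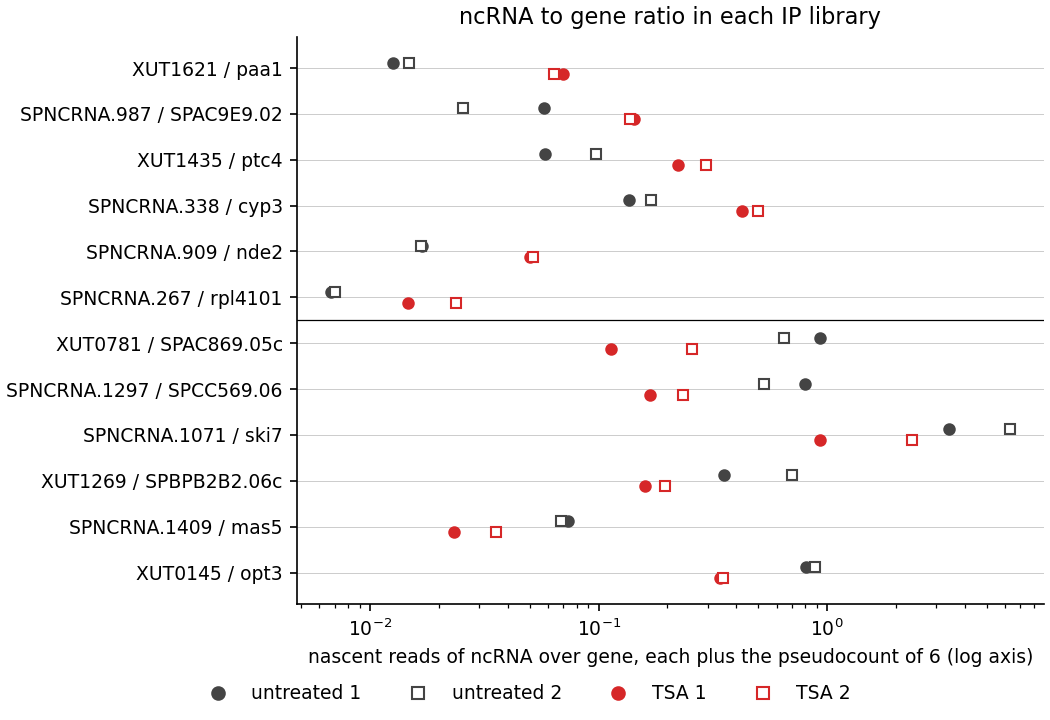
Ratio of nascent ncRNA reads to nascent gene reads, each plus the pseudocount of 6, in each IP library (horizontal, log axis), for the 6 largest called changes upward (above the line) and downward (below it); circles are library 1 and squares library 2 of untreated (grey) and TSA (red) cells. No untreated ratio lies among the TSA ratios of its pair, but the pairs were picked by the change of these ratios.

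Position along the chromosome went with direction. Of 25 members within 100 kb of an end of chromosomes I or II, 16 were tested, 4 rose and 0 fell on the spike-in scale in limma, with a median of 0.61. All 152 features tested there included 60 that rose (39.5%), with a median of 0.84. The other 438 tested members had 9 rises and 29 falls and a median of -0.22. Near the ends 1 of 16 pair ratios was higher and 5 were lower, against 45 and 10 of 435 elsewhere.

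Distance and arrangement separated the members little. Pairs apart with 5′ ends within 100 nt had 0 rises and 5 falls among 93, those over 100 and up to 250 nt apart had 6 and 7 among 141, and those farther apart had 5 and 8 among 73. Overlapping pairs had 2 and 6 among 92 up to 250 nt, and 0 and 3 among 55 beyond. The medians of these 5 classes ran from -0.28 to -0.09. At the edge of the rule, the 27 tested members with more than 450 nt between 5′ ends had a median of -0.26 with 2 rises and 1 fall, and the 18 tested ncRNAs just outside, up to 550 nt, had a median of -0.26 with 1 rise and 2 falls.

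By the kind of partner gene, 13 members lay opposite ribosomal protein genes, and of the 11 tested 0 rose and 3 fell, with a median of -0.69, where 2.10% of all features rose and 6.31% fell. Their 11 genes had a median of -0.78, with 2 falls. Members opposite heat shock genes (hsp16, hsp3101, mas5, ssa1 and ssc1) numbered 5, and both that could be tested fell. These groups are small, and such counts are read as values only. Of 3 opposite hexose transporter genes (ght1, ght3 and ght8) 1 rose. The 8 tested members opposite mug and meu genes, named for expression in meiosis, had no call and a median of 0.21. Opposite other named genes 9 of 277 rose and 14 fell, and opposite unnamed genes 3 of 153 rose and 10 fell.

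In the input RNA of the lysates, divergent ncRNAs were higher more often than lower in TSA. Of 363 tested, 32 rose (8.82%, against a background of 4.53%) and 1 fell (0.275%, against a background of 1.56%), at 25 loci for the rises. Of the 32, 26 share a same-strand feature's reads, and among the 111 tested members that share none 6 rose (5.41%), a share near the background. The median over all tested members was 0.29, beside 0.06 for the partner genes, of which 32 rose and 8 fell among 455, 0.19 for the other ncRNAs, of which 89 and 11 among 1439 were called, and -0.00 for all features. These calls rest on few reads, with a median of 8.5 per input library among the 32. The rises numbered 10 without TSA library 1 and 13 without TSA library 2, and the falls 3 without untreated library 1 and 0 without any of the others. Of the 32, 10 were called higher in nascent RNA when scaled to total reads and 3 when scaled to the spike-in. Under the first scaling 28 of the 31 that could be tested had a nascent change above 0.

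The largest input rises with 5 or more reads were at paa1, msy2, SPBC106.03, SPBC359.01 and SPAC4G9.22. XUT1621 at paa1 had 2.17 and 0 scaled input reads untreated, from 3 and 0 reads, and 11.2 and 7.78 in TSA, from 19 and 9 reads (log2 fold change 2.41, adjusted p = 0.00859). XUT1543, opposite the mechanosensitive channel gene msy2, went from 1.44 and 0.912 to 11.2 and 10.4 (2.35), above both untreated values in both TSA libraries. SPNCRNA.1350 went from 1.44 and 1.82 to 11.8 and 12.96 (2.27) and shares 61 nt with the sulfiredoxin gene srx1 on its strand. SPNCRNA.291 went from 1.44 and 0.912 to 10.02 and 9.51 (2.22), while SPNCRNA.810 went from 0.722 and 0.912 to 7.07 and 8.64 (2.17). None of the last 4 was called in nascent RNA on the spike-in scale, where their changes ran from -0.04 to 0.66. Without TSA library 1, 3 of these 5 input rises were lost and without TSA library 2 there was 1 lost, and DESeq2 called none of the 4 to which it gave an adjusted p.

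Whether nascent and input RNA changed unequally was tested as the difference of both changes within cultures. In limma 0 of 353 members passed in either direction, against backgrounds of 0.00% for rises and 0.00% for falls among 7183 features. At an unadjusted p under 0.05 there were 55 members, and 692 of all features. The median difference was -0.09 for the members and 0.03 for all features.

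Some genes of the machinery known to limit divergent transcription were called lower on the spike-in scale or in the input. Over all features, 2.10% rose and 6.31% fell in nascent RNA on that scale, and 4.53% rose and 1.56% fell in the input. The lists are small, and their counts are read as values only. None of 21 subunits of the Clr6, Set3 and Clr3 deacetylase complexes was called in nascent or input RNA, and none of 13 remodellers. Of 15 genes for Set1, Set2 and the H2A.Z exchange complex, swc2 alone fell, by 1.22 in nascent and 1.34 in input RNA (log2). Of 13 found for nucleosome assembly and H3K56 acetylation, rtt109, the gene of the H3K56 acetyltransferase, fell by 2.13 in the input. Of 19 RNA decay genes, air1, the gene of a zinc knuckle protein of the polyadenylation complex that assists the exosome, fell by 1.01 in nascent RNA, and rrp46, an exosome subunit gene, fell by 1.08 in the input. Of 16 termination genes, the helicase gene dbl8 fell by 1.02 and 1.05. No gene of these lists rose, and their spike-in medians ran from -0.65 to -0.50, beside -0.49 for all protein-coding genes.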

How the data were processed

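Per the study's methods, the authors trimmed reads with cutadapt and kept uniquely mapped reads with at most 1 mismatch from Bowtie, and the methods name ASM294v2. The annotation of the tables is not given in the sources used here. The deposited read columns are a scaled signal: the authors applied a single factor to each library's reads, the library with factor 1 keeps its read counts as deposited, and whole reads were recovered for 100% of values (tolerance 0.001 read). Deposited density columns are this signal per nt, and 6 summed density columns were left aside. Of 19343 rows, 10204 coding parts and 28 repeated pseudogene transcripts were set aside. limma 3.58.1 (lmFit, eBayes with trend, R 4.3.3) was fitted over all features to log2(value + pseudocount), with the 10th percentile of values above 0 as the pseudocount (6 for spike-in-scaled IP, 6.58 for total-read-scaled IP, 1.18 for the input). Features were tested where their mean exceeded it, with Benjamini-Hochberg adjustment over all, and called at an adjusted p under 0.05 and 2-fold. IP over input used within-culture differences, and ratios used the 923 pairs. On simulated data 76.3% of features changed by 1.5 (log2), 100% of those changed by 2.5 and 0.14% of unchanged ones were called among 8009. The simulation gave all features 1 common spread, used the known scale factors and held no difference between libraries. Its shares are therefore no error rates of the real data. Recovered reads were also tested with edgeR 4.0.16 and DESeq2 1.42.0.

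Named ncRNAs are the largest called changes with 20 or more mean IP reads (5 for input), the 8 densest, and the 6 largest ratio changes each way, 1 per locus. The members, lists and rules were chosen with earlier results of these data known. Alternatives varied the pseudocount, low-read filter, scaling, tool, replicate block, distance, overlap and libraries.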

Additional observations from a re-analysis of the deposited data

How the results depend on the processing

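Nascent rises on the spike-in scale (13) numbered 1 with 4 times the pseudocount, 6 at 20 or more mean reads, 8 with 5′ ends within 250 nt, 5 without ncRNAs that overlap another feature on their strand (a choice made after seeing the data), 1 in DESeq2, which gave an adjusted p to 1 of the 6 named rises, 30 with median-ratio scaling, 35 with TMM, and 3 to 20 with 1 library left out. The falls (29) numbered 9 with 4 times the pseudocount, 18 within 250 nt, 16 without gene overlap, 12 without same-strand overlap, 4 with median-ratio scaling, 6 with TMM and 0 to 65 with 1 library left out. Total-read rises (38) numbered 5 with 4 times the pseudocount, 21 without gene overlap, 12 without same-strand overlap, 25 in DESeq2 and 32 to 44 with 1 library left out. Total-read falls (4) numbered 2 with 4 times the pseudocount, 2 within 250 nt, 1 without gene overlap, 2 without same-strand overlap, 7 in edgeR, 2 in DESeq2 and 4 to 12 with 1 library left out. Fewer features entered the filters on reads, distance and overlap, and in the other settings the cause was not tested.

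Input rises (32) numbered 20 with 4 times the pseudocount, 7 at 20 or more reads, 15 without gene overlap, 6 without same-strand overlap, 4 in DESeq2 and 10 to 32 with 1 library left out. The input fall (1) numbered 0 with 4 times the pseudocount, 0 without gene overlap, 0 without same-strand overlap, 0 in DESeq2 and 0 to 3 with 1 library left out. Members higher in the IP (298) numbered 546 with no filter, 20 at 20 or more reads, 119 without gene overlap and 82 without same-strand overlap. Those lower (4) numbered 1 within 250 nt, 1 without gene overlap and 0 without same-strand overlap. The median of ncRNA minus gene (0.41) was 0.22 with 4 times the pseudocount, -1.39 at 20 or more reads, 0.17 without gene overlap and 0.34 to 0.40 with 1 library left out. Higher pair ratios (46) numbered 26 with 4 times the pseudocount, 27 at 20 or more reads, 23 without gene overlap, 15 without same-strand overlap and 0 to 49 with 1 library left out. Lower ratios (15) numbered 8 without gene overlap, 8 without same-strand overlap and 0 to 18 with 1 library left out.

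Same-numbered IP libraries share only a number: their deviations from the group means correlated at -0.21 with spike-in scaling, at -0.24 with total-read scaling and at 0.02 in the inputs. With the replicate number as a block, spike-in scaling gave 6 rises and 7 falls, total-read scaling 38 and 4, the input 41 and 1, and the pair ratios 46 and 15. With crossed numbers as the block (added after seeing the data) these were 13 and 29 for spike-in scaling and 38 and 4 for total-read scaling.

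Of the densest members, SPNCRNA.942 (-0.13) changed sign to 0.32 with median-ratio scaling and 0.36 with TMM and ranged from -0.33 to 0.070 with 1 library left out. For rrk1 (SPNCRNA.128, -0.02) these values were 0.43, 0.43 and -0.21 to 0.16, and SPNCRNA.893 (0.23) ranged from -0.17 to 0.63 with 1 library left out. None of these was called. Depth limits many members: 254 of 566 averaged under 20 IP reads.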
